A study of Mus musculus with 8 samples.

Results

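Round spermatids labelled shSLY were set against wildtype round spermatids on 4 of the 8 bead arrays of the series, chosen by their sample titles: 2 arrays of cells with the shSLY RNAi construct, numbered shSLY 1 and 2, and the wildtype arrays numbered 1 and 2, which were not on the slide of the shSLX samples. The shSLY construct is a transgene for a short hairpin RNA against Sly, and the wildtype mice carried no transgene. All mice were 8 weeks old and were matched for strain, although the strain, the promoter of the construct and the number of animals or transgenic lines per array are not given in the sources used here. Each p-value therefore rests on how far these particular arrays differ from each other, a spread that may be technical alone. The cells were enriched by centrifugal elutriation, a sorting by size and density, and total RNA was hybridised to Illumina mouse bead arrays. The comparison asks how the transcripts of spermatids differ when Sly is targeted, and the account below concerns mainly the autosomal genes.

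Round spermatids are the haploid germ cells that follow meiosis. They build the acrosome and the sperm tail, and they later replace most of their histones with protamines to pack the sperm nucleus. Sly is a multicopy gene of the mouse Y chromosome, expressed in spermatids, whose protein is known for keeping genes of the X and Y chromosomes at low levels in these cells. Its X-linked relatives Slx and Slxl1 are known to act in the opposite sense.

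The 2 deposited tables dispute which array is which. The ranks of the columns headed wildtype 1 and 2 in the non-normalized table were those of the same samples in the series matrix, whereas for the shSLY-labelled arrays they were not: their ranks appear in that table under the headings wildtype 3 and 4, and the headings shSLY 1 and 2 stand over ranks that the series matrix gives to shSLX 1 and 2. The columns headed shSLX 1 and 2 there had the ranks of no series matrix sample (best rank correlation 0.8934 and 0.9157). The ranks of series matrix wildtype 3 and 4 appeared under no heading. No column was renamed, and the values below are those of the series matrix under its own sample names. The array labels place wildtype 1 and both shSLY-labelled arrays on 1 slide and wildtype 2 on another. This placing of the shSLY-labelled arrays is disputed too. In the non-normalized table their ranks stand under headings that belong to the slide of the shSLX samples. Every result below with a slide term, or on 1 slide alone, follows the array labels. Log2 signals correlated across 16572 probes at 0.9956 within the shSLY-labelled pair and 0.9964 within the wildtype pair, and at 0.9895 to 0.9912 between the groups.

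The single tested probe for Sly (ILMN_2783107, chromosome Y) did not bear out the label. Its log2 signal was 10.56 and 10.26 on the shSLY-labelled arrays, against 10.52 and 10.36 on the wildtype arrays, and the groups overlapped. The log2 difference of -0.03 ± 0.11 (SE, n = 2 arrays each; limma adjusted p = 0.904) was within the spread between replicates. Sly is multicopy, and one probe reads copies with the same sequence together. The group is therefore called by its label, and each direction below belongs to the arrays so labelled. Round spermatid markers were near the same level in both groups: the summed linear signal of the 6 tested markers, among them Acrv1, Tnp1 and Prm1, was 76030 and 79520 on the shSLY-labelled arrays and 77120 and 84430 on the wildtype arrays. None of the 6 passed the limma test, and none had an unadjusted p under 0.05.

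Over all chromosomes, 651 of 16572 probes rose (3.93%) and 565 fell (3.41%) in the shSLY-labelled arrays at a limma adjusted p under 0.05, 7.34% in all. Among 9137 autosomal genes, read through the brightest probe of each, 211 rose (2.31% of those tested) and 363 fell (3.97%). Centred on the autosomal median, the counts were 247 rises and 279 falls. Most shifts were small. The rises had a median log2 difference of 0.455, which is 1.37-fold, and the falls a median of -0.434, which is 1.35-fold. A change of at least 2-fold was reached by 3 rises and 6 falls. The median autosomal gene lay at -0.0219. The 2 shSLY-labelled arrays were both above the 2 wildtype arrays for 1997 autosomal genes (21.9%) and both below them for 2913 (31.9%), so groups that do not overlap were common without passing the test. The slide that wildtype 1 shares with both shSLY-labelled arrays, fitted alone, gave 86 autosomal rises and 136 falls. With slide as a term over all 8 arrays, 10 rises and 15 falls were called. Within bulk RNA, fewer cells of a type and less RNA per cell cannot be told apart.

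**Figure D1:**
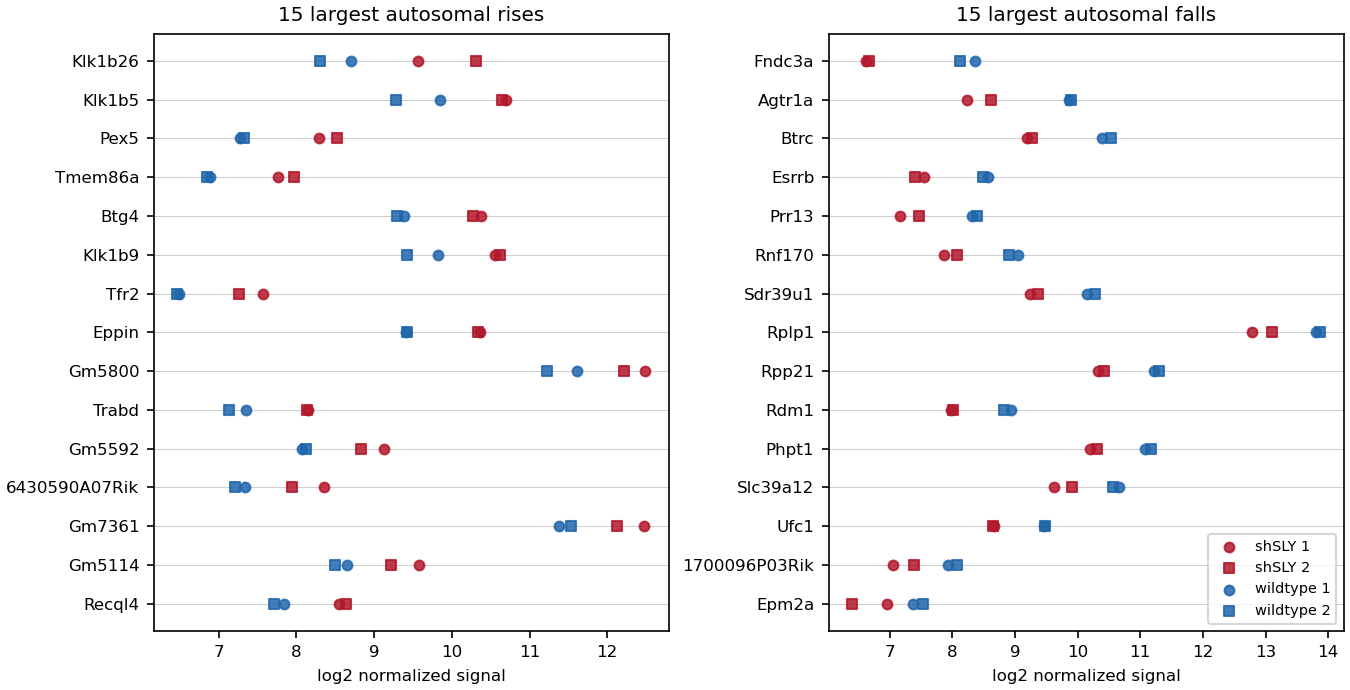
Log2 normalized signal (horizontal axis) of the 15 autosomal genes with the largest rises (left) and the 15 with the largest falls (right) on each of the 4 arrays. Each point is 1 array, and no shSLY-labelled point (red) lies among the wildtype points (blue) of the same gene, a condition of the choice of these genes. The separation is widest for Fndc3a, at 6.62 and 6.67 against 8.36 and 8.13.

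The autosomal gene with the largest fall was Fndc3a on chromosome 14 (probe ILMN_2482055), a fibronectin type III domain protein that is needed in mice for spermatids to stay separate from each other and attached to Sertoli cells. Its log2 signal was 6.62 and 6.67 on the shSLY-labelled arrays, against 8.36 and 8.13 on the wildtype arrays. Fndc3a was thus 3.02-fold lower, with a log2 difference of -1.60 ± 0.0956 (SE, n = 2 each; limma adjusted p = 0.000109). Agtr1a on chromosome 13, the type 1a receptor for angiotensin II, stood at 8.23 and 8.61, against 9.86 and 9.90 in wildtype, a log2 difference of -1.46 ± 0.121 (adjusted p = 0.000359). The shSLY-labelled pair was less alike for this gene than the wildtype pair, yet both arrays were far below it.

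Btrc on chromosome 19 encodes the F-box protein that picks substrates for an SCF ubiquitin ligase. It measured 9.19 and 9.27 on the shSLY-labelled arrays and 10.39 and 10.53 on the wildtype arrays, a log2 difference of -1.22 ± 0.0859 (adjusted p = 0.000183), and both of its probes fell. Esrrb on chromosome 12, an orphan nuclear receptor, measured 7.55 and 7.41, against 8.57 and 8.50 in wildtype, and fell by 1.06 on the log2 scale. Rnf170 on chromosome 8, a ubiquitin ligase of the endoplasmic reticulum, was at 7.87 and 8.07, against 9.04 and 8.90 in wildtype, and fell by 1.0 with both probes past the threshold. Prr13 on chromosome 15 fell by 1.03.

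The other large falls lay between 0.77 and 0.91 on the log2 scale. Rplp1, a protein of the ribosomal stalk, stood at 12.79 and 13.10 on the shSLY-labelled arrays, against 13.81 and 13.87 in wildtype, and fell by 0.90. Among 50 ribosomal proteins tested it alone fell (2%, beside 3.88% of all genes) and none rose (beside 3.94%). At an unadjusted p under 0.05, 7 of the 50 were above 0 and 2 below it. The largest log2 difference in this list, 1.34, did not pass the test. Rpp21, a subunit of ribonuclease P, which trims transfer RNA precursors, fell by 0.89 to 10.32 and 10.42, against 11.22 and 11.30 in wildtype. Ufc1, the conjugating enzyme for the ubiquitin-like modifier UFM1, fell by 0.81. The remaining genes of this group were the dehydrogenase family member Sdr39u1 (-0.91), the RAD52 motif gene Rdm1 (-0.89), the phosphohistidine phosphatase Phpt1 (-0.88), the zinc transporter Slc39a12 (-0.85), the long non-coding RNA 1700096P03Rik (-0.78) and Epm2a (-0.77), which encodes the glycogen phosphatase laforin. Of the 15 falls, 10 kept their call with slide as a term. Epm2a lost its call without wildtype 2, at a log2 difference of -0.688 (adjusted p = 0.114).

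The largest rises were led by tandem kallikrein genes of chromosome 7, described further below, and by Pex5 on chromosome 6, the receptor that carries matrix proteins into peroxisomes. Pex5 measured 8.28 and 8.52 on the shSLY-labelled arrays, against 7.27 and 7.32 on the wildtype arrays. Its rise of 1.10 ± 0.0955 on the log2 scale (adjusted p = 0.000417) was seen with all 3 of its probes. Btg4 on chromosome 9, known in oocytes as an adaptor for messenger RNA deadenylation, was at 10.38 and 10.28, against 9.39 and 9.29 in wildtype, a difference of 0.99 ± 0.0834 (adjusted p = 0.00038). Eppin on chromosome 2, a protease inhibitor of the sperm surface, was at 10.36 and 10.33, against 9.4 and 9.43 in wildtype, a difference of 0.93 ± 0.0769 (adjusted p = 0.000349). The replicates of Eppin and Btg4 lay close together in both groups.

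Tmem86a, an enzyme that breaks down lysoplasmalogen lipids, rose by 1.0 on the log2 scale. Tfr2, the second transferrin receptor, rose by 0.94 with 1 of its 2 probes past the threshold. Trabd rose by 0.90 with 2 of 3 probes, and Recql4, a RecQ helicase of DNA replication, by 0.82 with both. Another 5 of the 15 genes carry only provisional names: Gm5800 on chromosome 14 (0.93), Gm5592 (0.88) and Gm5114 (0.83) on chromosome 7, Gm7361 on chromosome 5 (0.84) and the long non-coding RNA 6430590A07Rik (0.88). With slide as a term, 7 of the 15 rises kept their call, and the adjusted p of the other 8 lay between 0.0662 for Tmem86a and 0.179 for Gm5114.

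The group with the most rises was the histones. Of 57 tested histone genes, 21 rose (36.8%) and none fell, against 3.94% rising and 3.88% falling among all 9451 genes; at an unadjusted p under 0.05, 32 histone genes were above 0 and none below it. Their median log2 difference was 0.322, beside -0.0159 over all genes. The 50 autosomal members had 14 rises and no fall, with a median of 0.246, where 2.31% of autosomal genes rose and 3.97% fell. Replication-dependent histone genes lie in a large cluster on chromosome 13, whose messages normally end in a stem-loop without a poly(A) tail. On chromosome 13, 11 of 34 histone genes rose and 31 lay above 0, with a median of 0.334. The other 283 genes of that chromosome had 4 rises, 12 falls and a median of -0.0351. With slide as a term, no histone gene was called (limma), although the median stayed at 0.353.

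The classes of the cluster differed in how many members rose: 4 of 5 H3 genes (median 0.602), 5 of 10 H4 genes (0.325), 1 of 9 H2A genes (0.728) and 1 of 9 H2B genes (0.0909), while the single H1 gene lay at -0.116. H3c1 measured 10.16 and 10.21 on the shSLY-labelled arrays, against 9.51 and 9.52 in wildtype, a rise of 0.67 ± 0.0772 (adjusted p = 0.00152). H3c6 measured 10.78 and 10.85, against 10.32 and 10.06, a rise of 0.62 ± 0.101 (adjusted p = 0.00863). Other members, picked after their values were seen, were H3c7 (0.60), H4c1 (0.59) and H4c11 (0.58). H4c1 stood at 11.81 and 11.93, against 11.25 and 11.32 in wildtype. The groups did not overlap for these called H3 and H4 genes, nor for any of the 211 autosomal rises that were called. Both shSLY-labelled arrays were above wildtype in 21.9% of all autosomal genes. The genes encode near-identical histones, so that a probe may read several of them.

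The H2A genes of chromosome 13 behaved differently between the 2 shSLY-labelled arrays. Over 9 H2A genes, the median distance from the wildtype mean was 0.198 on shSLY 1 and 1.42 on shSLY 2, and 1 of the 9 passed the test. H2ac24 and H2ac7, neither past the threshold, were picked after their values were seen. H2ac24 was at 10.90 and 12.05 on the shSLY-labelled arrays, against 10.67 and 10.54 in wildtype. H2ac7 was at 10.58 and 11.77, against 10.43 and 10.18. Over 5 H3 genes, both arrays were alike, with medians of 0.565 on shSLY 1 and 0.638 on shSLY 2, and over 10 H4 genes they were 0.304 and 0.347. Without shSLY 2, the number of histone genes that rose was 15, and without shSLY 1 it was 29.

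Upstream sequences of 2 of these histone genes follow (mouse RefSeq, GRCm38.p6, minus strand, 250 bases before the start, 5′ to 3′). They are examples of an H3 and an H4 gene and do not compare the classes. H3c6 is at chr13:23562386-23562635 and H4c1 at chr13:23761250-23761499. Capitals mark CCAAT or TATAAA on either strand (ATTGG is CCAAT read from the other strand).
H3c6: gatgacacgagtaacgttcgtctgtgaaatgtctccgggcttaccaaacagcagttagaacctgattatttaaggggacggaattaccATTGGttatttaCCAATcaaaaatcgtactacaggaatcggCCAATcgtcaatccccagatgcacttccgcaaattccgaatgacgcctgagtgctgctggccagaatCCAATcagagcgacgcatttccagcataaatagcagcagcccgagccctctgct
H4c1: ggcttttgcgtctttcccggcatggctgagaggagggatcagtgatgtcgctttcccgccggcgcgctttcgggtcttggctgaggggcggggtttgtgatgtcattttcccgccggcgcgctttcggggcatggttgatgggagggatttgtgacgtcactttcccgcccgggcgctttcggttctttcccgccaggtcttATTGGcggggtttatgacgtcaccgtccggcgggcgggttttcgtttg
H3c6 holds 4 CCAAT boxes in this window and H4c1 holds 1. A CCAAT was present in 23 of the 31 tested chromosome 13 histone genes with an upstream sequence (74.2%), against 36.9% of the 7690 tested genes with one and 34.5% of all 27025 promoters. TATAAA was present in 38.7% of these histone genes, against 6.92% of tested genes and 13% of all promoters. The autosomal genes that rose had CCAAT in 32.6% and those that fell in 36.9%. These matches describe the letters of the window and show no binding.

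Histone variants of the sex chromosomes rose as well. All 6 tested X-linked histone genes passed the test, with a median of 0.642, as did the Y-linked one. Among all genes of X and Y, 55.9% and 81.2% rose. The X-linked histone genes include short H2A variants of spermatids. H2al3 was at 12.37 and 12.29 on the shSLY-labelled arrays, against 11.54 and 11.18 in wildtype (0.97). H2al1n was at 13.65 and 13.52, against 12.88 and 12.84 (0.72). H2al1m (0.66) and H2ap (0.62) followed. Among 22 genes for sperm chromatin packaging, a list that shares H2al1m with the histones, Prm3 on chromosome 16 also rose, with 11.97 and 12.06, against 11.61 and 11.27 in wildtype (0.58, adjusted p = 0.0217). Its adjusted p was 0.0512 without shSLY 2, at a difference of 0.534, and 0.0931 without wildtype 2, at 0.404. In that list of 22, 2 genes rose (9.09%, 1 of them autosomal) and none fell, beside 3.94% and 3.88% of all genes. At an unadjusted p under 0.05, 5 were above 0 and 1 below it.

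**Figure D2:**
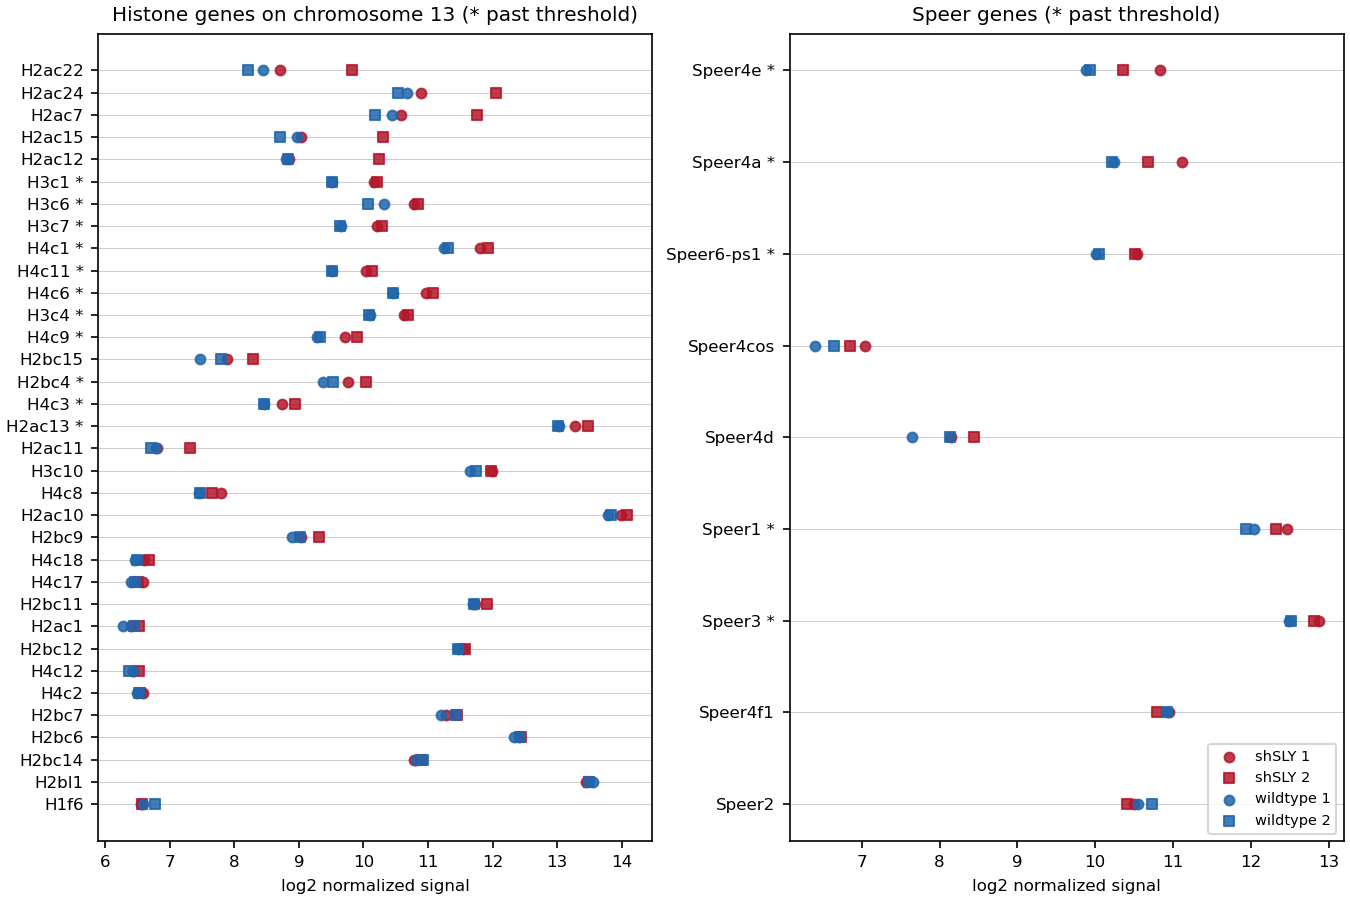
Log2 normalized signal (horizontal axis) on each of the 4 arrays for the tested histone genes of chromosome 13 (left) and the tested Speer genes (right), with an asterisk at genes past the threshold. The H2A genes at the top left differ mainly on shSLY 2 (red squares), as H2ac24 does at 12.05 against 10.90 on shSLY 1, while the H3 and H4 genes are alike on both shSLY-labelled arrays.

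Speer genes are a multicopy family expressed in mouse spermatids, most of them on chromosome 5. Of 9 tested, 5 rose (55.6%, beside 2.31% of autosomal genes) and none fell (beside 3.97%), with a median log2 difference of 0.406. Both shSLY-labelled arrays were above wildtype in 7 of the 9 and below it in 1, beside 21.9% and 31.9% of all autosomal genes. None was below 0 at an unadjusted p under 0.05. Speer4e was at 10.83 and 10.36 on the shSLY-labelled arrays, against 9.89 and 9.93 in wildtype (0.69 ± 0.137, adjusted p = 0.0216). Speer4a was at 11.11 and 10.68, against 10.24 and 10.22 (0.67 ± 0.129, adjusted p = 0.0193). In both genes shSLY 1 was the higher of its pair and the wildtype arrays nearly coincided. Speer6-ps1 on chromosome 13 (0.50), Speer1 (0.40) and Speer3 (0.34) rose less. Speer1 and Speer3 each had 1 of 2 probes past the threshold.

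Copies of this family are alike enough that probes may read more than 1 of them, and their upstream sequences show the likeness (mouse RefSeq, GRCm38.p6, minus strand, 250 bases before the start, 5′ to 3′, CCAAT in capitals). Speer4a is at chr5:26039506-26039755 and Speer4e at chr5:14938476-14938725.
Speer4a: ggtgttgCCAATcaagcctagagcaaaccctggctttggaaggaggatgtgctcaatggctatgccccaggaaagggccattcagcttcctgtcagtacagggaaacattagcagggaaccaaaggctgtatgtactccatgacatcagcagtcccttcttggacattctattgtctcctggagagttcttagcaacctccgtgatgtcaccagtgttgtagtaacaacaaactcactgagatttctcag
Speer4e: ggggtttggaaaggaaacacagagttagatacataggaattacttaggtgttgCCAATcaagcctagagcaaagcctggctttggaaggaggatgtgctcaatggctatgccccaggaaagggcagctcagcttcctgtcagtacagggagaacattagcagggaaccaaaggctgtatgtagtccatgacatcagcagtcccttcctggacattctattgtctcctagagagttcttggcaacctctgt
A local alignment of the pair covered 204 positions with 194 identical bases (95.1%). Calls of the family depended on single arrays. Speer6-ps1 kept its call without each of the 4 arrays. Speer4a and Speer4e lost it without wildtype 1, at 0.677 and 0.665, and without wildtype 2, at 0.656 and 0.708. The adjusted p of Speer1 reached 0.151 and that of Speer3 0.139 when arrays were left out in turn. No Speer gene was called with slide as a term, where their median was 0.518.

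Rises were unevenly spread over the autosomes. They made up 5.93% of the tested genes of chromosome 14 (20 genes) and 4.73% of chromosome 13. The shares were 3.38% on chromosome 7, 3.29% on chromosome 5 and 0.466% on chromosome 10 (2 genes), beside 2.31% of all autosomal genes. Falls on chromosome 14 were also above the autosomal share, at 5.34% (18 genes) beside 3.97%. On chromosome 14, genes known only by a Gm number were 6 of the 20 rises, of 14 such genes tested, with none falling and a median of 0.301. Among them, Gm5800 measured 12.49 and 12.21 on the shSLY-labelled arrays, against 11.62 and 11.23 in wildtype, and Gm2888, picked after its value was seen, measured 12.66 and 12.57, against 12.21 and 12.11. Gm2888 lost its call without shSLY 1 (0.413) and without wildtype 2 (0.412). On chromosome 5, 2 of 12 genes with such names rose and none fell, with a median of 0.112. On the remaining autosomes, 3 of 62 rose and 4 fell, with a median of -0.065. These gene groups were looked at after the values were seen.

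**Figure D3:**
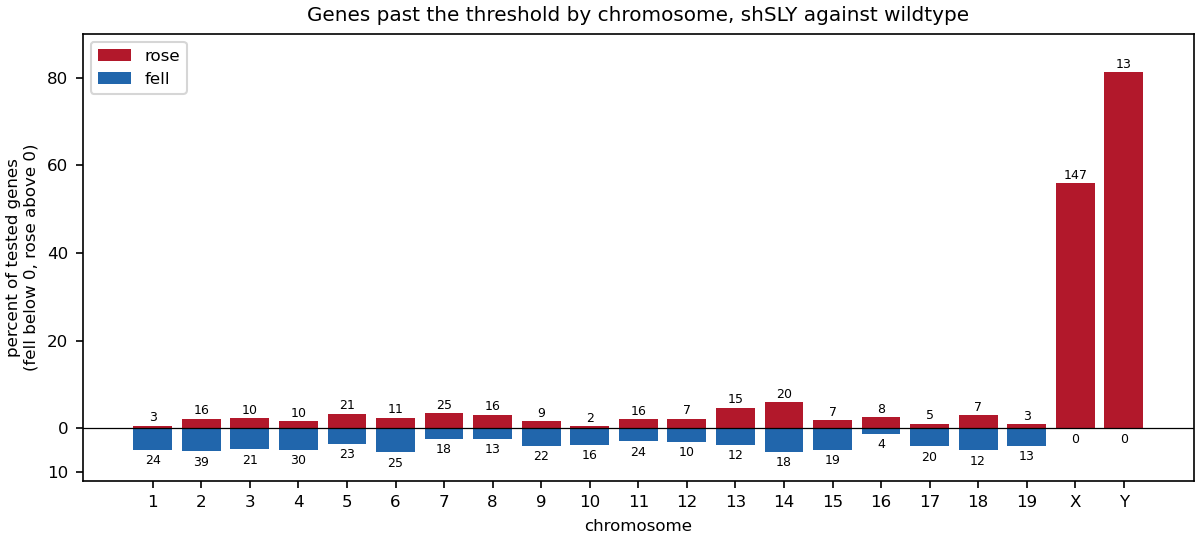
Percent of tested genes on each chromosome that rose (bars above 0) or fell (bars below 0) in the shSLY-labelled arrays, with the number of genes at each bar. Rises reach 55.9% on X and 81.2% on Y with no falls there. Among autosomes, chromosome 14 has the largest share of rises at 5.93%, with falls at 5.34%.

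On the sex chromosomes, 147 of 263 X-linked genes (55.9%) and 13 of 16 Y-linked genes (81.2%) rose, beside 2.31% of autosomal genes. No X-linked or Y-linked gene fell, beside 3.97% of autosomal genes, and none was below 0 at an unadjusted p under 0.05. The median log2 difference was 0.431 for X and 0.54 for Y. Both shSLY-labelled arrays showed the shift, with X medians of 0.449 and 0.403 relative to the wildtype mean. Rhox11, a homeobox gene, measured 9.47 and 9.25, against 7.75 and 7.77 in wildtype (1.60). The actin-related gene Actrt1 measured 11.60 and 11.45, against 10.06 and 9.96 (1.52), and Gm15104 rose by 1.5. On Y, Ssty1 rose by 1.23 and Ssty2 by 1.18, members of a multicopy spermatid-specific family. X-linked genes recur in the functional groups below and are named there as such.

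Glandular kallikreins are serine proteases encoded by a tandem family on chromosome 7. Klk1b26 measured 9.57 and 10.31 on the shSLY-labelled arrays, against 8.70 and 8.31 in wildtype, a rise of 1.44 ± 0.219 (adjusted p = 0.00648). Klk1b5 measured 10.70 and 10.65, against 9.85 and 9.28 (1.11 ± 0.159, adjusted p = 0.0049), and Klk1b9 measured 10.56 and 10.62, against 9.82 and 9.42 (0.97 ± 0.124, adjusted p = 0.00283). In all 3, wildtype 1 was the higher wildtype array. Klk1, picked after its value was seen, also rose, with 8.78 and 8.65, against 8.23 and 7.71 (0.74). It lost its call without shSLY 1 (0.682) and without wildtype 2 (0.482). Another 4 kallikrein genes of the chromosome did not pass, between -0.0502 and 0.152. The upstream sequences of Klk1b5, Klk1b9 and Klk1b26 were 83.5% to 86.7% identical in local alignments, and the copies may share probe signal.

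Kallikreins of this family are known from Leydig cells as well as from glands, and Leydig cells make testosterone between the tubules. The one Leydig marker that could be tested of 7 on the array, the peptide hormone gene Insl3, also rose, at 8.26 and 8.04 on the shSLY-labelled arrays, against 7.58 and 7.64 in wildtype (0.54, adjusted p = 0.0124). Its call was lost without wildtype 1, at 0.508 (adjusted p = 0.06). The other 6, among them Star and Cyp11a1, were not detected in enough columns to be tested. The summed linear signal of the Leydig list was 306.3 and 262.4, against 190.8 and 199.3 in wildtype. The part of Leydig RNA in the kallikrein rises was not tested.

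In the other marker lists no gene rose. Among Sertoli markers, 5 of 9 were tested, with sums of 1028 and 1084 on the shSLY-labelled arrays and 925.4 and 1037 in wildtype. Stroma and peritubular markers summed to 748.3 and 608.9, against 628.5 and 362.6, and immune markers to 1458 and 1286, against 1390 and 904.6. Haemoglobin genes summed to 2526 and 3823, against 2475 and 770.4, so that wildtype 2 stood apart as low. Pachytene spermatocyte markers summed to 3842 and 3787, against 4486 and 4919, with 1 of 5 above 0, and spermatogonia markers to 683.3 and 733.3, against 705.3 and 670.3. Of these lists, the pachytene one had a call by limma. Spo11, the enzyme that makes the breaks of meiotic recombination, fell by 0.42, with 9.89 and 9.70, against 10.19 and 10.24. Spo11 had 1 of its 2 probes past the threshold. Without shSLY 2 its adjusted p was 0.104 (-0.323), without wildtype 1 it was 0.0803 (-0.446) and without wildtype 2 it was 0.137 (-0.39). At an unadjusted p under 0.05, 3 haemoglobin genes, 1 stroma gene and 1 spermatogonia gene were above 0.

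**Figure D4:**
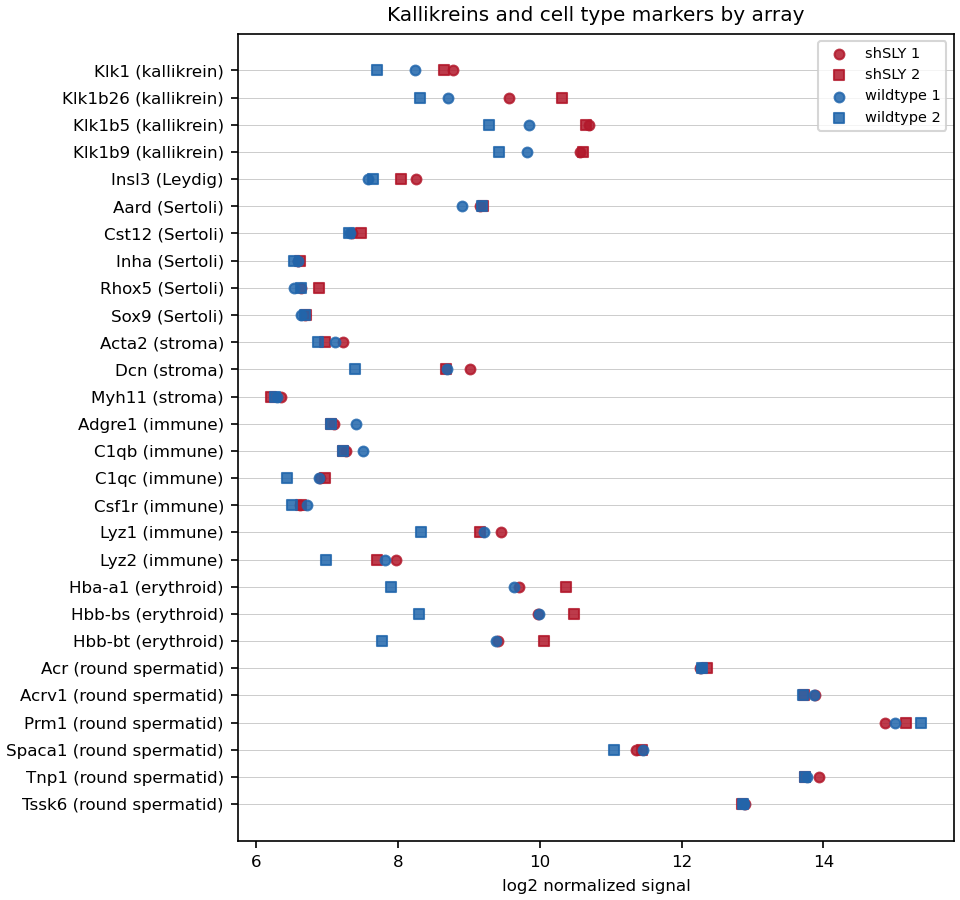
Log2 normalized signal (horizontal axis) of the 4 kallikrein genes past the threshold and of the tested cell type markers on each of the 4 arrays. The kallikreins and Insl3 are higher on the shSLY-labelled arrays (red), the haemoglobin genes are low on wildtype 2 (blue squares), and the round spermatid markers overlap between groups.

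Immediate-early genes, which cells switch on within a short time of a stimulus, were higher in the shSLY-labelled arrays for several members. Fos was at 8.15 and 7.99, against 7.50 and 7.34 in wildtype (0.65 ± 0.0952, adjusted p = 0.00529), and Zfp36, an RNA decay factor, at 7.62 and 7.55, against 6.98 and 7.0 (0.59 ± 0.0783, adjusted p = 0.00324). Jund rose by 0.54. The family was then looked up with these values known: of 12 tested, 6 rose (50%, beside 3.94% of all genes) and 1 fell (8.33%, beside 3.88%), with a median of 0.305. Egr1 rose by 0.61, with 8.94 and 8.72, against 8.23 and 8.22, and Fosb by 0.48. Dusp1, a phosphatase of the same early response, went the other way, at 8.62 and 8.39, against 8.99 and 8.97 (-0.47). Without wildtype 2, Jund (0.385), Fosb (0.421) and Dusp1 (-0.477) had adjusted p of 0.101, 0.0825 and 0.0891. Jund also lost its call without shSLY 1 (0.514), and Dusp1 without shSLY 2 (-0.354) and without wildtype 1 (-0.463).

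**Figure D5:**
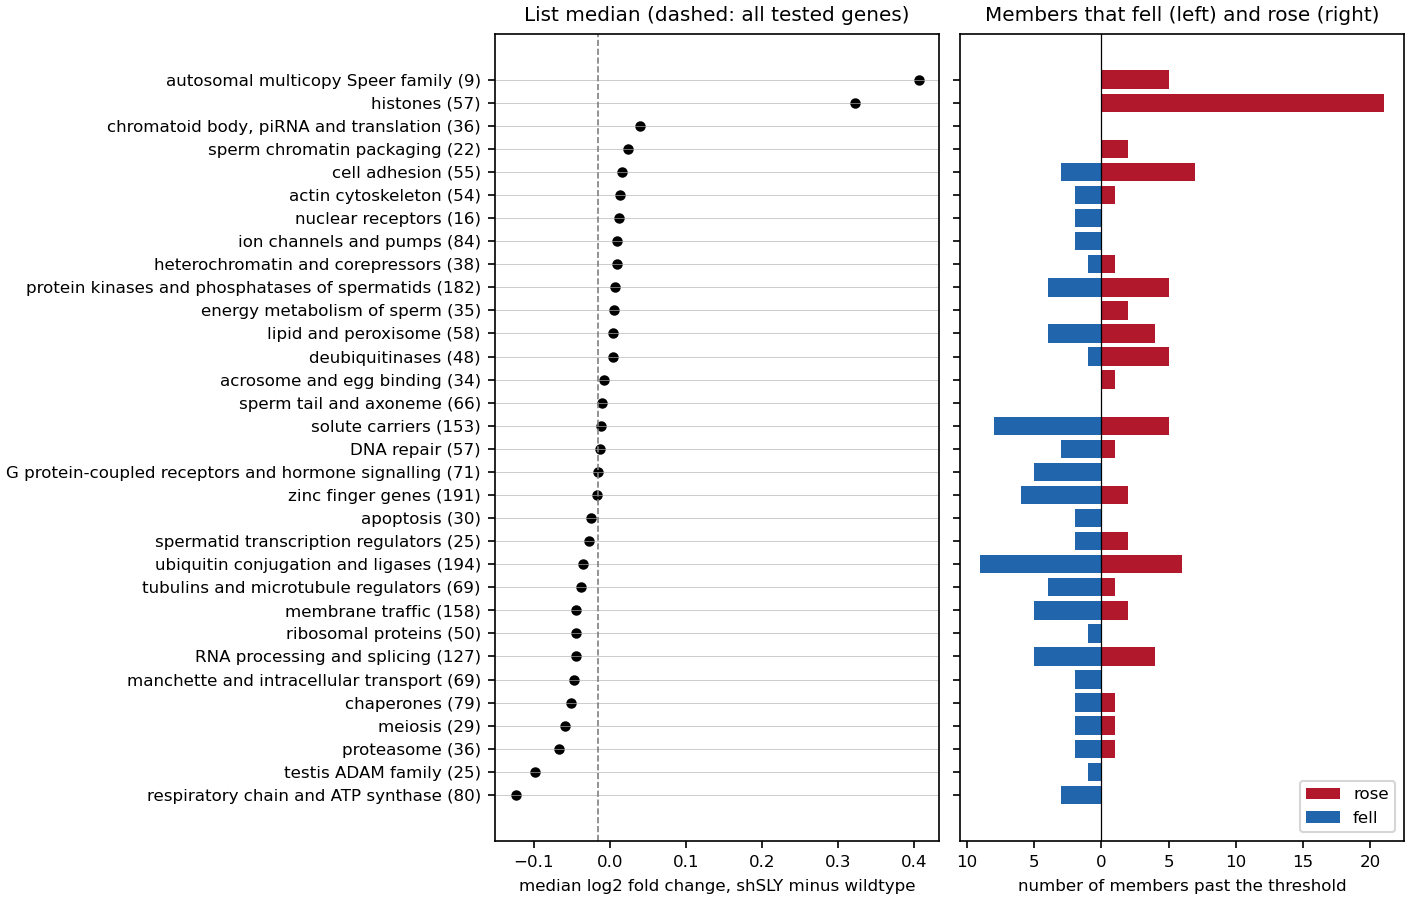
Median log2 difference of each functional list (left, with the number of tested genes in parentheses and a dashed line at the median of all genes) and the number of members that rose or fell (right). The Speer family and the histones stand at 0.406 and 0.322, and the other lists lie between -0.124 and 0.0393.

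Few genes for building the sperm cell passed the test, beside 3.94% rising and 3.88% falling among all genes. No gene for the sperm tail and axoneme passed limma's test among 66, with 2 above 0 and 3 below it at an unadjusted p under 0.05 and differences between -0.327 and 0.275. The same held for 36 genes of the chromatoid body, piRNA pathway and translation, with 3 above 0 and 1 below it unadjusted. Of 34 genes for the acrosome and egg binding, Spaca4, an acrosome membrane protein, rose by 0.33 and none fell (6 were below 0 unadjusted). Of 25 testis ADAM genes, Adam29 fell by 0.44 and none rose, with none above 0 and 7 below it unadjusted and a median of -0.0989. Of 69 genes for the manchette and transport along microtubules, with 3 above 0 and 11 below it unadjusted, 2 fell, led by the kinesin Kif21a, with 8.46 and 8.64 on the shSLY-labelled arrays, against 9.15 and 9.09 in wildtype (-0.57 ± 0.089, adjusted p = 0.00715). The adjusted p of Spaca4 was between 0.0763 and 0.152 when arrays were left out in turn. Adam29 lost its call without shSLY 2 (-0.419) and without wildtype 1 (-0.363). Spaca4 and Adam29 each had 1 of 2 probes past the threshold.

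Among 194 genes for ubiquitin conjugation and ligases, 6 rose (3.09%) and 9 fell (4.64%), shares near the 3.94% and 3.88% of all genes. The 4 largest rises were X-linked: Asb12 (1.43), the ubiquitin-conjugating enzyme homologue Ube2dnl2 (1.03), Asb9 (0.90) and Klhl15 (0.79), the Asb and Klhl proteins being substrate adaptors of cullin ligases. The 187 autosomal members had 2 rises and 9 falls. Asb12 measured 9.43 and 9.23, against 7.91 and 7.88 in wildtype. Of 48 deubiquitinases, 5 rose (10.4%) and 1 fell (2.08%), but the 43 autosomal members had 1 rise and 1 fall. Usp26 on X rose by 0.98. Usp3 on chromosome 9, which removes ubiquitin from histones, was at 9.28 and 9.20, against 8.72 and 8.47 (0.64 ± 0.1, adjusted p = 0.00724). Of the 2 probes of Usp3, 1 passed the threshold.

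Besides Btrc, other F-box genes fell. This family was looked up after the values were seen: of 42 tested, 5 fell (11.9%, beside 3.88% of all genes) and none rose, while their median was -0.022 and 18 lay above 0. Fbxo15 was at 8.36 and 8.60, against 9.03 and 9.23 in wildtype (-0.65). Fbxo4 was at 8.05 and 8.12, against 8.61 and 8.79 (-0.61 ± 0.0906, adjusted p = 0.00575), Fbxo44 fell by 0.58 and Fbxo2 by 0.53. Fbxo15 lost its call without wildtype 2 (-0.548, adjusted p = 0.0553), and Fbxo2 without wildtype 1 (-0.505) and without wildtype 2 (-0.563).

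Among receptors and hormone signalling, 5 of 71 tested genes fell (7.04%, beside 3.88% of all genes) and none rose, with 4 above 0 and 10 below it at an unadjusted p under 0.05. Beside Agtr1a, P2rx3, an ATP-gated channel, was at 8.49 and 8.58, against 9.13 and 9.08 in wildtype (-0.57 ± 0.0806, adjusted p = 0.00476). The olfactory receptor gene Olfr303 fell by 0.64, with 8.35 and 8.71, against 9.17 and 9.17, and the G protein subunit Gnai1 by 0.44. Olfr303 lost its call without wildtype 1 (-0.637, adjusted p = 0.051) and without wildtype 2 (-0.64, adjusted p = 0.0576), and Gnai1 without wildtype 2 (-0.407, adjusted p = 0.0825). Of 182 kinase and phosphatase genes, 5 rose (2.75%) and 4 fell (2.2%). The rises were led by the X-linked anchoring protein Akap14 (1.04), then by Mapkapk3 (0.53). The falls included Camk2n1, an inhibitor of calmodulin-dependent kinase II, and Cdk15, each at -0.57.

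Adhesion genes had 7 rises (12.7%) and 3 falls (5.45%) among 55, beside 3.94% and 3.88% of all genes. Fndc3a belongs to this list. Pcdhgb2 of the protocadherin cluster on chromosome 18 was at 8.52 and 8.60, against 7.88 and 7.81 in wildtype (0.72 ± 0.0807, adjusted p = 0.00138). Cdh24 was at 7.67 and 8.00, against 7.24 and 7.17 (0.63), and lost its call without wildtype 2 (0.596, adjusted p = 0.065). In the actin list, 1 of 54 genes rose (1.85%), the X-linked Actrt1, and 2 fell (3.7%), led by Cobll1 (-0.76), whose probes both fell. Membrane traffic had 2 rises (1.27%) and 5 falls (3.16%) among 158. The sorting nexin Snx2 was at 9.0 and 9.02, against 9.72 and 9.50 (-0.60), and Vps50, of an endosome tethering complex, at 8.32 and 8.38, against 8.95 and 8.94 (-0.59).

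In metabolism, the lipid and peroxisome list had 4 rises and 4 falls among 58 (6.9% each, beside 3.94% and 3.88% of all genes). Beside Pex5, the acyl-CoA thioesterase Acot10 rose, at 10.67 and 10.57, against 10.08 and 10.11 in wildtype (0.52 ± 0.0806, adjusted p = 0.00686). Hsd17b4, an enzyme of peroxisomal fatty acid oxidation, fell, at 9.37 and 9.56, against 10.12 and 10.16 (-0.68 ± 0.0903, adjusted p = 0.00338). Of 35 genes for sperm energy metabolism 2 rose, led by the X-linked glycolytic gene Pgk1 (0.82), and none fell (4 were below 0 unadjusted). The respiratory chain and ATP synthase list had the lowest median, -0.124. Of its 80 genes, 16 were above 0 (20%, beside 45.8% of all genes). Both shSLY-labelled arrays were below wildtype in 47 of the 80, beside 31.9% of all autosomal genes. Still, 3 of the 80 fell (3.88% of all genes did) and none rose, and 2 were above 0 and 20 below it at an unadjusted p under 0.05. Ndufv3, a complex I subunit, fell by 0.48, with 10.02 and 10.25, against 10.57 and 10.65. Its call was lost without shSLY 1 (-0.358), without wildtype 1 (-0.513) and without wildtype 2 (-0.441). The median of this list was -0.0263 when all 4 wildtype arrays served as controls.

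Solute carriers, which move ions and metabolites across membranes, had 5 rises (3.27%) and 8 falls (5.23%) among 153, beside 3.94% and 3.88% of all genes, and the 144 autosomal ones had 1 rise and 8 falls. Slc10a3 on X rose, with 9.23 and 9.19 on the shSLY-labelled arrays, against 8.32 and 8.25 in wildtype (0.93 ± 0.0791, adjusted p = 0.00038). Beside Slc39a12, the zinc exporter Slc30a1 fell, with 9.46 and 9.35, against 9.89 and 10.01 (-0.55 ± 0.0859, adjusted p = 0.00746). The mitochondrial dicarboxylate carrier Slc25a10 also fell, with 7.36 and 7.41, against 7.83 and 8.01 (-0.54 ± 0.0896, adjusted p = 0.00972). The groups did not overlap for these 3 genes, nor for any of the 363 autosomal falls that were called. Both shSLY-labelled arrays were below wildtype in 31.9% of all autosomal genes. Without wildtype 2, Slc30a1 (-0.484, adjusted p = 0.0506) and Slc25a10 (-0.446, adjusted p = 0.0608) lost their calls.

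The counts of the remaining lists stand beside 3.94% rising and 3.88% falling among all genes. Nuclear receptors had no rise and 2 falls among 16 (12.5%, with 1 above 0 unadjusted), Esrrb being one. Among genes for RNA processing and splicing, 4 of 127 rose (3.15%) and 5 fell (3.94%), with Rpp21 the largest fall. DNA repair had 1 rise (1.75%) and 3 falls (5.26%) among 57, led by Rdm1. Meiosis genes had 1 rise (3.45%) and 2 falls (6.9%) among 29. Tubulins and microtubule regulators had 1 rise (1.45%) and 4 falls (5.8%) among 69. The proteasome had 1 rise (2.78%) and 2 falls (5.56%) among 36, and chaperones 1 rise (1.27%) and 2 falls (2.53%) among 79. Spermatid transcription regulators, which include Fos and Jund, had 2 rises and 2 falls among 25 (8% each). Ion channels and pumps had no rise and 2 falls (2.38%) among 84, with 6 above 0 unadjusted. Apoptosis genes had no rise and 2 falls (6.67%) among 30, with none above 0 unadjusted by limma. Of 191 zinc finger genes, 2 rose (1.05%) and 6 fell (3.14%), the largest falls being Zscan5b (-0.70) and Zfp317 (-0.66). Heterochromatin proteins and corepressors had 1 rise and 1 fall among 38 (2.63% each). None of 7 interferon response genes passed the limma test, and none had an unadjusted p under 0.05.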

How the data were processed

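Total RNA of round spermatids was measured on Illumina bead arrays, and 4 of the 8 arrays were compared: 2 labelled shSLY and wildtype 1 and 2. Per the file headers, the authors deposited a table of non-normalized probe intensity with a detection p-value for each probe and array. They also deposited a series matrix of intensity values for 45281 probes, normalized by the authors: each of the 8 columns runs from 46.4 to 42689, with a median of 73.6 to 73.7. Per the submitters' processing notes, BeadStudio and GenomeStudio were used. No version or background step is given there.

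Series matrix values were background-corrected with normexp (offset 50), quantile-normalized and converted to log2 (limma 3.58.1, R 4.3.3). Probes with a deposited detection p-value under 0.01 in at least 2 of 8 columns were kept, 16572 in all. The rule does not use the column headings, but 2 of the 8 columns, headed shSLX, matched no series matrix sample. Between 13572 and 16113 probes were detected per column. Groups were compared with lmFit and eBayes on the 4 arrays (residual degrees of freedom 2, prior 6.45), and p-values were adjusted by Benjamini-Hochberg over all kept probes, with a threshold of 0.05. The small number of arrays limits the precision. The fitting code was tested on simulated data. For genes, the probe with the highest mean was used, giving 9451 genes. Where a called gene had several probes, 19 of 75 autosomal rises and 36 of 130 autosomal falls had every probe past the threshold, and none had probes called in opposite directions.

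Platform annotation gave 34885 probes 1 symbol, 18 several and 10378 none. Unnamed probes had 188 rises and 90 falls among 2725 tested and are not described. Symbols of 34807 probes were updated through the GRCm38.p6 gene table, which also gave chromosomes. The files name no build. Upstream sequences came from RefSeq on that build, found for 7690 of the 9451 tested genes, and were cut to the 250 bases before the start. They were searched for CCAAT and TATAAA on both strands, and pairs were aligned locally with biopython 1.88.

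Named genes are the 15 largest autosomal rises and falls whose arrays do not overlap between groups, up to 6 called members of each of 41 lists, up to 6 genes each of X and Y, and Sly, with others stated as picked after their values were seen. The members and lists were chosen with earlier results of these data known, so no count over a list is independent evidence. The alternatives concerned the background step, scaling, source table, probe filter, probes per gene, arrays in the fit, slide, replicate block, variance prior and each array left out. Where 1 array was left out, the lone array was assumed to vary like the others. Same-numbered arrays of the groups deviated together only weakly (correlation over probes 0.138), the labels do not tie the numbers to shared animals, and the main fit has no block.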

Additional observations from a re-analysis of the deposited data

Results flagged for a closer look

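The shSLY effect was set against the shSLX effect in 1 limma fit over all 8 arrays, with each pair of transgenic arrays against its own pair of wildtype arrays (wildtype 1 and 2 for shSLY, wildtype 3 and 4 for shSLX), so the effects share no controls. The difference between the effects passed an adjusted p of 0.05 for 739 of 16572 probes (4.46%) and for 20 of the 30 autosomal genes named for the largest shSLY changes, genes that were chosen for that effect. The shSLX effect belongs to arrays that the labels place on another slide, and the 2 deposited tables dispute their identity. The part of slide and identity in the differences was not tested.

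The widest gaps were those of Fndc3a, at -1.60 under shSLY and 1.32 under shSLX on the log2 scale, a difference of -2.92 (adjusted p 2e-05), and Rnf170, at -1.0 and 0.82, a difference of -1.82 (adjusted p 0.000284). Both genes thus moved in opposite directions under the 2 labels, each past the threshold. For the other falls, the shSLY effect minus the shSLX effect was -1.20 for Agtr1a, -1.03 for Btrc, -1.10 for Esrrb, -1.04 for Prr13, -0.706 for Sdr39u1, -1.09 for Rplp1, -0.842 for Rpp21, -0.818 for Rdm1, -0.869 for Phpt1, -0.925 for Slc39a12 and -1.02 for Ufc1. For the rises it was 1.26 for Pex5, 1.31 for Btg4, 0.899 for Tfr2, 1.04 for Gm5800, 0.733 for Trabd, 0.931 for Gm5592 and 0.885 for Recql4. The kallikreins were not in this group: Klk1b26 was at 1.44 under shSLY and 2.25 under shSLX, and the difference did not pass (adjusted p 0.22). Groups of 2 arrays are too small to test for outlying arrays.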

How the results depend on the processing

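Counts of probes past the threshold (1216) lay within 1.5 times of it with normexp offset 16, no background step, centring on the autosomal median, no filter, detection in all 8 columns, the replicate block (1394) and a trended robust prior. Beyond that range were 778 with 1 probe per gene (fewer probes tested), 575 with 8 arrays in 4 groups, 635 with all 4 wildtype arrays, 469 with slide as a random block, 118 with slide as a fixed term, and 558 on slide 2 alone, which equals leaving out wildtype 2. Leaving out 1 array gave 558 to 1044 probes, 86 to 183 autosomal rises and 136 to 303 autosomal falls. Autosomal rises and falls numbered 93 and 126 with 8 arrays in 4 groups, 116 and 140 with all 4 wildtype arrays, 73 and 89 with the random block, 10 and 15 with the fixed term, and 86 and 136 on slide 2 alone. Centring gave a share of rises among called probes of 62.4%, against 53.5% without it. The replicate block, with the numbers not shown to pair the arrays, changed the call of no named gene. Sly stood at 0.166 with all 4 wildtype arrays and 0.0697 with the random block, and between -0.179 and 0.118 with 1 array left out (0.118 without shSLY 2, 0.0499 without wildtype 1), none past the threshold. X and Y medians were 0.544 and 0.704 with offset 16 and 0.611 and 0.799 with detection in all 8 columns, and with 1 array left out 0.403 to 0.449 and 0.443 to 0.637. Of the 94 called genes named here, 71 kept their call without each of the 4 arrays and 26 with slide as a fixed term, in which the shSLY-labelled arrays are in effect set against wildtype 1. The cause of these losses was not tested.

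The non-normalized table under its own headers, with limma's neqc, is another assignment of arrays rather than a second measurement, since its columns headed shSLY hold the ranks of the shSLX samples. It called 574 probes, of which 35 were shared in direction, and 131 autosomal falls. Sly was at -1.32 (adjusted p 0.036), the X median at -0.133 and the Y median at -0.0963. Named genes turned below 0 there were Pex5 -0.719, Btg4 -0.638, Tfr2 -0.294, Gm5592 -0.542, Gm7361 -0.879, Gm5114 -0.676, Recql4 -0.907, Rhox11 -0.194, Actrt1 -0.15, Gm15104 -0.384, Ssty1 -0.349, Ube2dnl2 -0.355, Asb9 -0.235, Klhl15 -0.309, Usp26 -0.563, Akap14 -0.065, Slc10a3 -0.43, Pgk1 -0.503, H2al3 -0.222, H3c1 -0.423, H3c6 -0.385, H3c7 -0.437, H4c1 -0.383, H4c11 -0.0124, Speer4e -0.64, Speer4a -0.366, Speer6-ps1 -0.86, Speer1 -0.562, Speer3 -0.624, Gm2888 -0.341, Insl3 -0.385, Jund -1.43, Fosb -0.358, Pcdhgb2 -0.429 and Spaca4 -0.254. Turned above 0 were Fndc3a 1.4, Agtr1a 0.143, Prr13 0.088, Rnf170 0.896, Phpt1 0.0389, Slc39a12 0.0642, Ufc1 0.0495, Olfr303 0.175, Gnai1 0.667, Fbxo15 0.243, Fbxo4 0.162, Adam29 0.295, Kif21a 0.414, Ndufv3 0.14, Spo11 0.85, Snx2 0.456, Vps50 0.374, Cobll1 0.489, Cdk15 0.143, Zscan5b 0.0208 and Zfp317 0.0211. Dim signal limits the rest: in 4 autosomal rises and 6 autosomal falls, the lower group lay no higher than the 95th percentile of undetected probes (6.28 to 6.29 on the log2 scale).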
